A study of Arabidopsis thaliana with 32 samples.

Results

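The 4 genes described here encode helix-loop-helix (HLH) proteins that hold back elongation in the shade of other plants. They are PIL1 (AT2G46970, PHYTOCHROME INTERACTING FACTOR 3-LIKE 1), HFR1 (AT1G02340, LONG HYPOCOTYL IN FAR-RED), PAR1 (AT2G42870) and PAR2 (AT3G58850, both PHYTOCHROME RAPIDLY REGULATED). They were taken by gene identifier from a count table of 33602 Arabidopsis thaliana genes, and all 4 were among the 20145 genes that passed the filter on low counts. PIL1 and HFR1 transcripts rose strongly at every time point up to 24 h when far-red light was added, at either temperature. HFR1 also rose with warmth alone, PAR1 rose early and most in warm shade, and PAR2 passed the test against the control in 1 group, warm shade at 3 h.

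Light rich in far-red, as reflected by neighbouring leaves, turns the photoreceptor phytochrome B into its inactive form, and the PHYTOCHROME INTERACTING FACTORS (PIFs), basic HLH proteins that bind DNA as dimers, then switch on genes of auxin synthesis and cell elongation. HFR1, PAR1 and PAR2 lack the residues needed to bind DNA and pair with PIFs, which keeps the PIFs off their target promoters. PIL1 is a basic HLH protein that also pairs with PIFs. The genes of all of them have been described as induced by shade, which would make them a brake on the response that induces them. In the data below, added far-red light at the same temperature raised PIL1 and HFR1 at every time point. PAR1 passed that test at single time points only in the warmth, early on, and in the mean over time at both temperatures. For PAR2 no test of far-red light at the same temperature passed, at single time points or in the mean over time. HFR1 and PIL1 proteins are in addition removed by the COP1-SPA ubiquitin ligase, so a transcript level does not give the level of the protein.

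RNA was measured in whole Col-0 wild-type seedlings that had grown for 3 days in constant LED white light of about 70 µE at 21 °C and were then kept there (21WL), given added far-red light at a red to far-red ratio of 0.6 (21FR), moved to 30 °C in white light (30WL), or given both (30FR, warm shade). Seedlings were collected after 1, 3, 6 or 24 h, about 25 to a sample, and each of the 16 groups has 2 biological replicates, 32 libraries in all. Every condition had its own samples at every time point, and the 21WL libraries of a time point serve as control for 21FR, 30WL and 30FR alike. The labels do not tie the replicate numbers to a shared sowing or day, and p-values measure the spread between these samples only.

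Libraries held 7606788 to 28170966 counts on genes. The summed level of 3 photosynthesis genes, RBCS1A, LHCB2.1 and LHCB1.3, lay between 16721 and 43284 CPM (the counts of a gene scaled to a library of fixed size), lowest in 30FR at 24 h with 17553 and 16721 CPM. Markers of root (BGLU23, EXPA7, PIN2, COBL9) summed to 2134 to 3870 CPM and those of seed storage (SESA1, CRA1, OLEO1) to 0.127 to 16.6 CPM, so that RNA of shoot and root was present throughout and that of seed reserves was low. Of the markers, SESA1 alone did not pass the filter on low counts. The summed level of 7 heat response genes, among them HSFA2, a heat shock factor, was 36.0 to 140 CPM in the 21 °C libraries and 257 to 5464 CPM in the 30 °C libraries. Replicates of 30WL at 3 h stood apart on it, with 720 and 3404 CPM, as did those of 30FR at 3 h, with 1011 and 529 CPM. The part of this in the results at 3 h was not tested beyond leaving out each library in turn.

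All 4 genes lie on the minus strand and overlap no other annotated gene. In TAIR10.1, RefSeq's release of the TAIR10 assembly to which the authors aligned their reads, PIL1 spans chr2:19295431-19297858 with 1724 bases of exon in 6 blocks, and HFR1 spans chr1:465616-467880 with 1522 bases in 4 blocks. PAR1 (chr2:17836416-17837618, 1203 bases of exon) and PAR2 (chr3:21759350-21760390, 1041 bases) are each a single exon, and the coding part is 357 bases long in both. No stretch of 50 exonic bases of any of the 4 occurred elsewhere in the genome, so that reads of 50 bases can be told apart even between PAR1 and PAR2.

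PIFs bind the G-box CACGTG and, less strongly, the PIF-binding E-box (PBE-box) CACATG, and both were searched on both strands of the 2000 bases before the annotated start of each gene. The G-box, which reads the same on both strands, occurred 3 times before PIL1, 2 times before HFR1 and 1 time each before PAR1 and PAR2. Of 27440 promoters of the same length, 1.33% held at least 3 G-boxes, 5.48% at least 2 and 23.8% at least 1. The PBE-box was not found before PIL1, and occurred 1 time before HFR1, 4 times before PAR1 and 6 times before PAR2, where 61% of promoters held at least 1, 3.48% at least 4 and 0.339% at least 6. A pair of the PAR2 matches overlap each other and no PBE-box overlaps a G-box. A match is a description of the letters and not a measured binding site. The 80 bases around 1 G-box of each gene are printed 5′ to 3′ on the strand of the gene, because they show how the elements are arranged, with G-boxes and PBE-boxes in capitals.
PIL1, chr2:19299033-19299112: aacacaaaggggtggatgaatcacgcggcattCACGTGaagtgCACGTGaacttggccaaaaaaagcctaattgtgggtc
HFR1, chr1:468838-468917: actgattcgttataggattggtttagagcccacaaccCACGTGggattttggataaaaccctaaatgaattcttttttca
PAR1, chr2:17838513-17838592: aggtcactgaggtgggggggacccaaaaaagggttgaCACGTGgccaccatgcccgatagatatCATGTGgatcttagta
PAR2, chr3:21761378-21761457: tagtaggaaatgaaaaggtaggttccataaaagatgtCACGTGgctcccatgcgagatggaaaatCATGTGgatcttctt
The PIL1 window holds 2 G-boxes close together, and the PAR1 and PAR2 windows each hold a G-box followed by a PBE-box read as CATGTG. The PAR1 and PAR2 windows align over 55 columns with 43 identical bases (78.2%), 9 mismatches and 3 gap columns. Over the whole 2000 bases the best local match of this pair covered 145 columns at 75.9% identity, against 23 to 52 columns for the other pairs of the 4 genes.

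**Figure D1:**
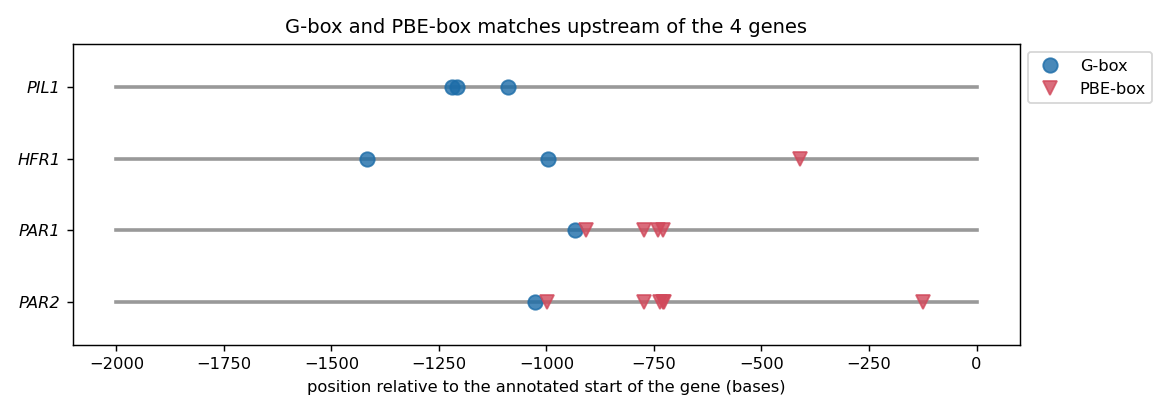
Positions of G-boxes (circles) and PBE-boxes (triangles) in the 2000 bases before the annotated start of each gene, on the strand of the gene and in bases. PIL1 has 3 G-boxes and no PBE-box, whereas PAR1 and PAR2 have 1 G-box each and 4 and 6 PBE-boxes.

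PIL1 was almost silent without far-red light and strongly expressed with it. In 21WL its level, in CPM scaled by the trimmed mean of M-values (TMM), was 0.58 and 0.90 in the 2 replicates at 1 h, 0.52 and 0.69 at 3 h, 1.14 and 0.56 at 6 h, and 1.35 and 0.75 at 24 h. In 21FR it was 20.1 and 19.2 CPM at 1 h, 42.1 and 38.7 at 3 h, 45.4 and 33.8 at 6 h, and 29.4 and 34.1 at 24 h. The lowest 21FR library, at 19.2 CPM, thus lay far above the highest 21WL library, at 1.35 CPM. In 30WL the level stayed between 0.49 and 1.32 CPM in all 8 libraries, with 0.49 and 0.75 at 1 h, 0.66 and 1.32 at 3 h, 0.74 and 0.59 at 6 h, and 0.62 and 1.0 at 24 h. In 30FR it was 27.1 and 25.8 CPM at 1 h, 20.4 and 24.8 at 3 h, 24.9 and 20.3 at 6 h, and 24.6 and 21.5 at 24 h. White light libraries of both temperatures overlapped, and rested on 6 to 26 counts of PIL1 each, while those with far-red light held 277 to 953.

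HFR1 differed from PIL1 in that warmth without shade also moved it. Its level in 21WL was 2.58 and 4.97 CPM at 1 h, 3.37 and 5.54 at 3 h, 4.10 and 4.61 at 6 h, and 4.25 and 2.17 at 24 h. Warm white light (30WL) gave 8.54 and 11.6 CPM at 1 h, 8.19 and 10.3 at 3 h, 6.80 and 9.84 at 6 h, and 8.95 and 7.03 at 24 h. The lowest of the 8 libraries of 30WL, at 6.80 CPM, lay above the highest of the 8 libraries of 21WL, at 5.54 CPM. In 21FR HFR1 climbed from 25.6 and 19.8 CPM at 1 h through 58.2 and 55.6 at 3 h to 107 and 90.07 at 6 h, and stood at 59.5 and 62.4 at 24 h. In 30FR it was at 49.0 and 52.3 CPM after 1 h, 56.6 and 85.3 after 3 h, 98.8 and 86.8 after 6 h, and 73.7 and 70.9 after 24 h. At 1 h the 30FR libraries lay above those of 21FR, at 3 h and 6 h the ranges of these conditions overlapped, and at 24 h 30FR was again above.

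PAR1, whose small protein acts as a transcriptional cofactor, was expressed at a low level and was highest at the first time point of warm shade. In 21WL it was at 2.71 and 2.65 CPM at 1 h, 2.34 and 2.80 at 3 h, 3.01 and 2.81 at 6 h, and 2.63 and 1.76 at 24 h. In 30FR it was at 10.8 and 11.4 CPM at 1 h, 6.67 and 8.48 at 3 h, 4.10 and 4.40 at 6 h, and 3.06 and 2.60 at 24 h. Warm shade was above the control at 1, 3 and 6 h, and the ranges overlapped at 24 h. In 21FR the values were 6.73 and 4.86 CPM at 1 h, 4.37 and 3.36 at 3 h, 6.32 and 2.98 at 6 h, and 2.80 and 2.70 at 24 h. In 30WL they were 5.28 and 2.79 CPM at 1 h, 3.58 and 3.41 at 3 h, 2.84 and 3.61 at 6 h, and 2.81 and 2.22 at 24 h. Replicates of 21FR at 6 h and of 30WL at 1 h were far apart, and at 1 h both 30FR libraries lay above all others.

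PAR2, the close relative of PAR1, was nearly level across the experiment. In 21WL it was at 4.58 and 6.98 CPM at 1 h, 6.23 and 7.09 at 3 h, 7.41 and 7.6 at 6 h, and 5.20 and 6.99 at 24 h. In 30FR the values were 5.36 and 8.01 CPM at 1 h, 12.3 and 10.9 at 3 h, 8.48 and 5.80 at 6 h, and 7.40 and 6.50 at 24 h. Both 30FR libraries at 3 h stood above every other library of the gene. In 21FR PAR2 ranged from 5.70 to 9.34 CPM with a median of 7.03 over 8 libraries, and in 30WL from 4.84 to 8.27 CPM with a median of 6.05, and both ranges overlapped that of 21WL.

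**Figure D2:**
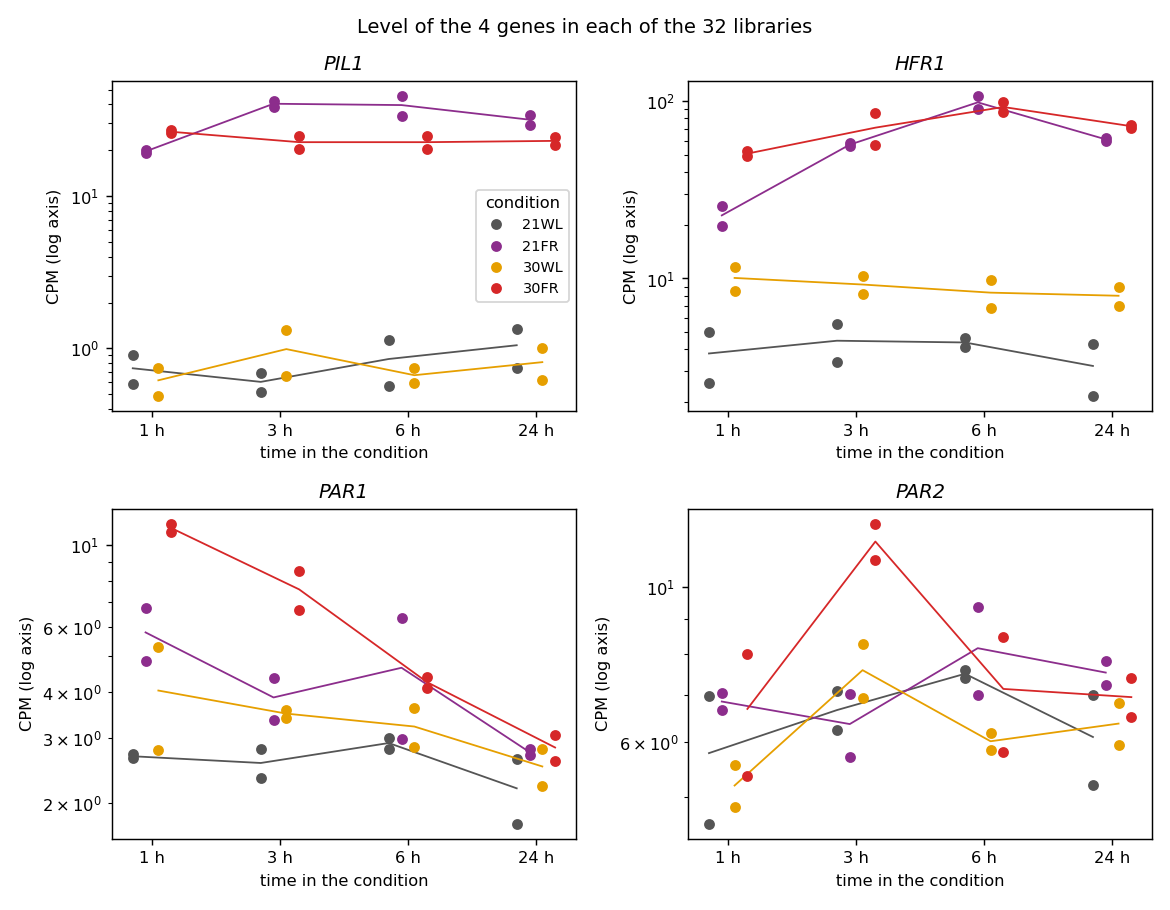
Level of PIL1, HFR1, PAR1 and PAR2 in CPM (log axis, with a scale of its own in each panel) against time in the condition, where each point is 1 library and each line joins the means of 2 replicates. PIL1 and HFR1 in 21FR and 30FR sit between 19.2 and 107 CPM, above the white light libraries, whereas PAR1 is highest in 30FR at 1 h and PAR2 in 30FR at 3 h.

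Low R/FR at 21 °C raised PIL1 and HFR1 at all time points. Each group was compared with 21WL at the same time by edgeR's quasi-likelihood test, with the Benjamini-Hochberg adjustment over all genes tested. A gene is said to have passed the test at an adjusted p under 0.05 and to be called where its log2 fold change (log2FC) was also above 1 in size. PIL1 rose by a log2FC of 4.69 ± 0.28 (SE) at 1 h, 6.02 ± 0.28 at 3 h, 5.50 ± 0.26 at 6 h and 4.91 ± 0.26 at 24 h (edgeR adjusted p = 1.13e-09, 2.25e-11, 1.7e-11 and 2.41e-10), that is 25.8 to 64.7 times. HFR1 rose more slowly, by 2.55 ± 0.28 at 1 h, 3.63 ± 0.28 at 3 h, 4.50 ± 0.27 at 6 h and 4.24 ± 0.29 at 24 h (edgeR adjusted p = 1.64e-05, 8.33e-08, 1.46e-09 and 1.52e-08). These 8 of the 16 tests of the 4 genes were called, all higher, against 0.217% of tests over all genes. The 4 genes were chosen as shade genes with earlier results of these data known, so such counts with far-red light are a description and no test. PAR1 did not pass, with a log2FC of 1.11 ± 0.31 at 1 h (edgeR adjusted p = 0.243) and 0.32 to 0.65 later, and neither did PAR2, between -0.07 and 0.31. With whole seedlings, more cells that express a gene and more RNA in each cell cannot be told apart. Without replicate 1 of 21WL at 6 h the log2FC of PIL1 at 6 h was 6.09.

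Warmth without shade raised HFR1, while PIL1, PAR1 and PAR2 did not pass the test. HFR1 was higher in 30WL than in 21WL by a log2FC of 1.40 ± 0.29 at 1 h, 1.02 ± 0.30 at 3 h, 0.98 ± 0.30 at 6 h and 1.29 ± 0.33 at 24 h (edgeR adjusted p = 0.00166, 0.0184, 0.0388 and 0.0138), a rise of 1.97 to 2.64 times. HFR1 gave the 3 calls among 16 tests (background 1.52%) and the 4 tests that passed without the fold threshold (background 8.57%). PIL1 had a log2FC of -0.24 ± 0.46, 0.74 ± 0.45, -0.42 ± 0.48 and -0.31 ± 0.45 at the 4 time points (edgeR adjusted p = 0.746, 0.26, 0.637 and 0.71), with wide errors and low counts. Without replicate 2 of 30WL at 3 h, the library with the high heat genes, the log2FC of PIL1 at 3 h was 0.09. PAR1 lay between 0.17 and 0.57 and PAR2 between -0.32 and 0.18, and neither passed. The rise of HFR1 kept its direction and fell short of the threshold with some libraries left out, at 3 h without replicate 1 of 21WL or replicate 2 of 30WL (edgeR adjusted p = 0.176 and 0.177) and at 24 h without replicate 2 of 21WL or replicate 1 of 30WL (0.198 and 0.118). At 6 h it did so without any of the 4 libraries (edgeR adjusted p = 0.0514 to 0.382), whereas at 1 h and in the mean over the 4 time points it passed whichever library was left out.

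**Figure D3:**
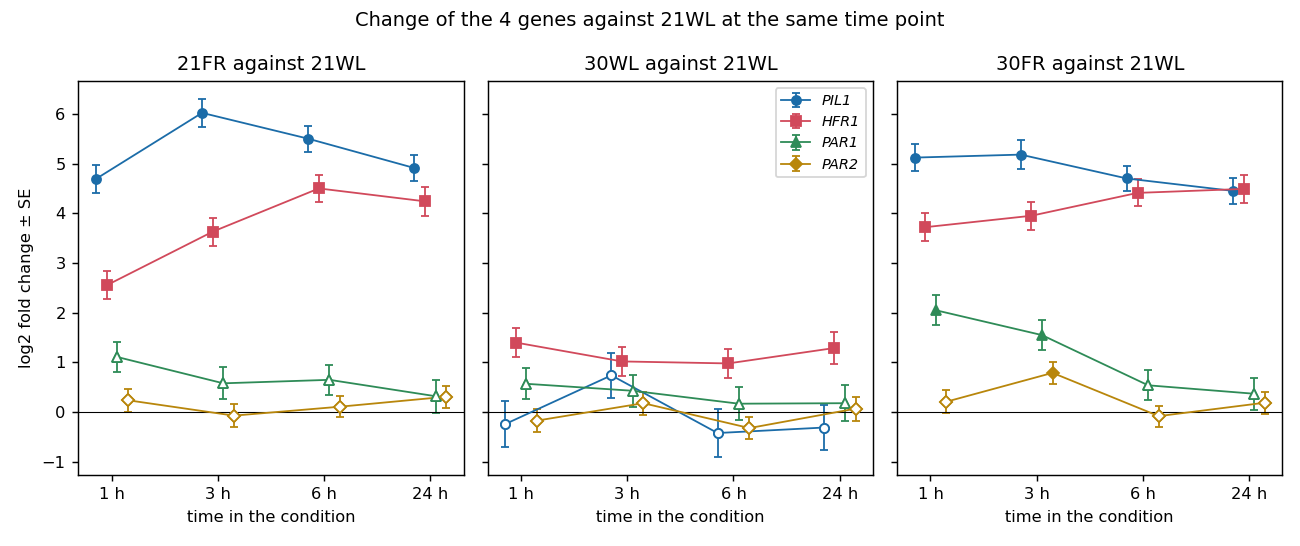
Log2 fold change against 21WL at the same time point for 21FR, 30WL and 30FR, with 1 line a gene, bars for ± 1 SE and filled symbols for an adjusted p under 0.05. PIL1 and HFR1 are far above 0 with far-red light in both temperatures, HFR1 alone is filled in 30WL, and PAR1 falls back towards 0 in 30FR after 3 h.

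Combined shade and warmth added PAR1, and at 3 h PAR2, to the genes that passed at single time points. The adjustment is made within each comparison, and PAR1 in 21FR at 1 h had an unadjusted p of 0.00158 by edgeR's quasi-likelihood test. In 30FR PIL1 was above 21WL by a log2FC of 5.12 ± 0.27, 5.18 ± 0.29, 4.70 ± 0.26 and 4.45 ± 0.26 at 1, 3, 6 and 24 h, and HFR1 by 3.72 ± 0.28, 3.95 ± 0.28, 4.41 ± 0.27 and 4.49 ± 0.29 (edgeR adjusted p at most 1.01e-08 in these 8 tests). PAR1 rose by 2.05 ± 0.30 at 1 h and 1.55 ± 0.30 at 3 h (edgeR adjusted p = 2.92e-05 and 0.000868), or 4.14 and 2.92 times. Its log2FC was 0.54 ± 0.30 at 6 h and 0.37 ± 0.32 at 24 h (edgeR adjusted p = 0.2 and 0.455). PAR2 was higher at 3 h alone among the 4 time points, by 0.79 ± 0.22 (edgeR adjusted p = 0.0108), a rise of 1.73 times. In all 10 of 16 tests were called (background 2.34%) and 11 passed without the fold threshold (background 12.3%). The PAR2 rise missed the threshold without replicate 1 of 21WL or replicate 1 of 30FR (edgeR adjusted p = 0.0897 and 0.0824).

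Warm shade and shade at 21 °C were then compared directly, which is the step between a growth response to shade and the larger one to warm shade that the study addressed. The 4 genes did not move together in this comparison. At 1 h the HFR1 level in 30FR was 2.24 times that in 21FR (log2FC 1.16 ± 0.23, edgeR adjusted p = 0.000866), with 0.32 ± 0.22 at 3 h, -0.09 ± 0.21 at 6 h and 0.25 ± 0.22 at 24 h, none of which passed. PAR1 was higher at 1 h and at 3 h, by 0.94 ± 0.28 and 0.96 ± 0.28 (edgeR adjusted p = 0.0147 and 0.0136), and PAR2 at 3 h, by 0.86 ± 0.21 (edgeR adjusted p = 0.00463). PIL1 moved the other way and was lower in 30FR at 3 h and 6 h, by a log2FC of -0.84 ± 0.18 and -0.81 ± 0.17 (edgeR adjusted p = 0.00125 and 0.00264), after 0.43 ± 0.18 at 1 h and before -0.46 ± 0.17 at 24 h (edgeR adjusted p = 0.0838 and 0.065).

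In 30FR against 21FR 1 of 16 tests was called, HFR1 at 1 h. The background of calls higher was 2.85% of all genes tested at 1 h, 2.47% at 3 h, 1.45% at 6 h and 1.61% at 24 h. No test was called lower (background over the 4 time points 1.91%), and without the fold threshold 4 passed higher and 2 lower, against 12.3% and 12.5% of tests over all genes. The 2 tests that passed lower are thus at the background share. The size of HFR1 at 1 h fell to 0.98 without replicate 2 of 21FR, where it still passed (edgeR adjusted p = 0.0297). PIL1 at 3 h passed whichever library was left out, and at 6 h it missed the threshold without replicate 1 of 21FR or replicate 2 of 30FR (edgeR adjusted p = 0.0685 and 0.0522). PAR1 at 1 h missed it without replicate 2 of 21FR or either replicate of 30FR (edgeR adjusted p = 0.169, 0.0522 and 0.0685), PAR1 at 3 h without replicate 2 of 21FR or of 30FR (0.118 and 0.1), and PAR2 at 3 h without replicate 2 of 21FR (0.0579).

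**Figure D4:**
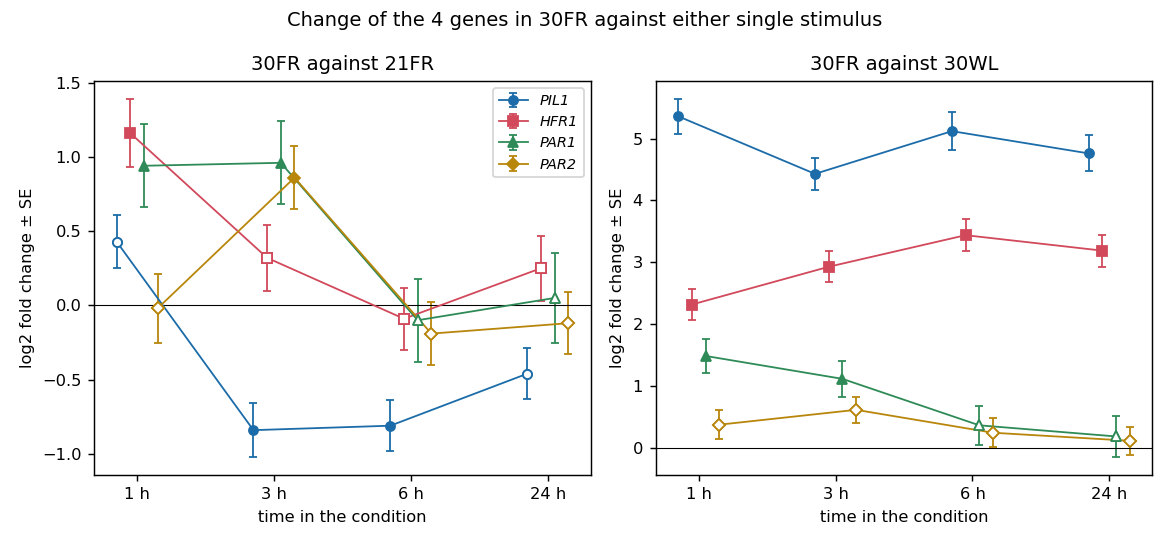
Log2 fold change of the 4 genes in 30FR against 21FR (left) and against 30WL (right) by time, with ± 1 SE and filled symbols for an adjusted p under 0.05, on 2 different scales. On the left HFR1 and PAR1 lie near 1 at 1 h and PIL1 lies near -0.8 at 3 and 6 h, and on the right PIL1 and HFR1 lie between 2.32 and 5.36.

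Added far-red light at 30 °C raised PIL1, HFR1 and, early on, PAR1. Against 30WL, PIL1 in 30FR was higher by 5.36 ± 0.28, 4.43 ± 0.26, 5.12 ± 0.31 and 4.76 ± 0.29 and HFR1 by 2.32 ± 0.25, 2.93 ± 0.25, 3.44 ± 0.26 and 3.19 ± 0.26 on the log2 scale at the 4 time points (edgeR adjusted p at most 9.93e-06). PAR1 was higher by 1.49 ± 0.28 at 1 h and 1.12 ± 0.29 at 3 h (edgeR adjusted p = 0.00794 and 0.0487), and PAR2 did not pass, with 0.62 ± 0.21 at 3 h (edgeR adjusted p = 0.163). These were 10 calls of 16 (background 0.258%). PAR1 at 1 h missed the threshold with each time point fitted alone (edgeR adjusted p = 0.0517) and without replicate 2 of 30WL or of 30FR (0.148 and 0.095), and PAR1 at 3 h missed it without any of the 4 libraries (0.118 to 0.371), with each time point fitted alone (0.0826) and with the size factors of DESeq2 (0.0516). Without replicate 2 of 30WL at 3 h, the library with the high heat genes, the log2FC of PIL1 at 3 h was 5.08.

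Whether far-red light acted differently on the 4 genes at the 2 temperatures was tested as an interaction, the log2FC of 30FR over 30WL minus that of 21FR over 21WL. No test of 16 passed by edgeR's quasi-likelihood test, its likelihood ratio test or DESeq2, where 0% of tests over all genes were called higher and 0.00248% lower, and 4 of the 16 had an unadjusted p under 0.05. HFR1 had -0.24 ± 0.38 at 1 h, -0.70 ± 0.37 at 3 h, -1.06 ± 0.37 at 6 h and -1.05 ± 0.40 at 24 h (edgeR adjusted p = 0.642 to 1), and the value at 1 h was 0.14 without replicate 1 of 21WL. PIL1 had 0.67 ± 0.49, -1.58 ± 0.48, -0.39 ± 0.52 and -0.15 ± 0.49 (edgeR adjusted p = 0.646 at 3 h and 0.976 to 1 elsewhere), and the value at 3 h was -0.92 without replicate 2 of 30WL. PAR1 and PAR2 lay between -0.27 and 0.68. For the mean over the time points HFR1 had -0.76 ± 0.19, which did not pass by the quasi-likelihood test (edgeR adjusted p = 0.331) and did by the likelihood ratio test and DESeq2 (0.0376 and 0.0498).

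The genes also differed in their course within a condition. In 21WL none of the 12 tests against 1 h passed (edgeR adjusted p = 0.588 to 1), and so none was called. Over all genes and the 4 conditions together, 1.47% of such tests were called higher and 1.26% lower. Having no call in 21WL is near these shares. In 21FR HFR1 was higher than at 1 h by a log2FC of 1.33 ± 0.23 at 3 h, 2.12 ± 0.23 at 6 h and 1.43 ± 0.23 at 24 h (edgeR adjusted p = 0.0128, 3.13e-05 and 0.000448), and PIL1 by 1.04 ± 0.18, 1.01 ± 0.18 and 0.69 ± 0.18 (0.0128, 0.00304 and 0.0167). In 30FR, by contrast, PIL1 was already at its highest mean at 1 h and later changed by -0.20 to -0.22, which did not pass, while HFR1 rose by 0.87 ± 0.22 at 6 h (edgeR adjusted p = 0.00825). That rise missed the threshold without replicate 1 of 30FR at 1 h or at 6 h (edgeR adjusted p = 0.0811 and 0.063). In 21FR, HFR1 and PIL1 at 3 h missed it without any of the 4 libraries (edgeR adjusted p = 0.0895 to 0.371 and 0.107 to 0.259), and so did PIL1 at 24 h (0.0518 to 0.141). PIL1 at 6 h missed it without replicate 2 of 1 h or replicate 1 of 6 h (edgeR adjusted p = 0.0779 and 0.0617).

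PAR1 ran down over the same hours. In 30FR it fell by 1.38 ± 0.27 at 6 h and by 1.97 ± 0.28 at 24 h on the log2 scale against 1 h (edgeR adjusted p = 0.00137 and 1.44e-05), so that 24 h was at 25.5% of the mean at 1 h. In 21FR it fell by 1.07 ± 0.30 at 24 h (edgeR adjusted p = 0.0251). PAR2 was highest at 3 h in 30FR, above 1 h by 0.78 ± 0.21 (edgeR adjusted p = 0.0164). PAR1 in 30FR passed at 6 h and 24 h whichever library was left out. PAR1 in 21FR missed the threshold without replicate 1 of 1 h or either replicate of 24 h (edgeR adjusted p = 0.225, 0.129 and 0.133), and PAR2 in 30FR without replicate 1 of 1 h or of 3 h (0.186 and 0.0968). Over all 48 tests of time within a condition 5 were called higher and 3 lower, against a background of 1.47% and 1.26%, and with 1 library left out the calls numbered 5 to 9. The fewest, 5, came without either replicate of 21FR at 1 h.

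The loss of the PAR1 response was the 1 change of a response with time that was called among 36 tests, against 0.341% of tests lower over all genes. The log2FC of 30FR over 21WL was smaller at 24 h than at 1 h by a difference of -1.69 ± 0.44 (edgeR adjusted p = 0.0249). The growth of the HFR1 response to 21FR had the larger value, 1.95 ± 0.40 from 1 h to 6 h, and did not pass (edgeR adjusted p = 0.244), though it did by edgeR's likelihood ratio test and DESeq2 (adjusted p = 0.00184 and 0.00144). The PAR1 change was lost on leaving out any 1 of 7 libraries, namely replicate 1 or 2 of 21WL at 1 h, of 30FR at 1 h or of 30FR at 24 h, or replicate 1 of 21WL at 24 h (edgeR adjusted p = 0.0529 to 0.12).

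Averaged over the 4 time points, 8 of 24 tests were called, all higher (background 0.981%), and 13 higher and 1 lower passed without the fold threshold (background 13.4% and 13.5%). PIL1 was above 21WL by 5.28 ± 0.13 in 21FR and 4.86 ± 0.14 in 30FR and by -0.06 ± 0.23 in 30WL, the last not passing (edgeR adjusted p = 0.861). HFR1 was above it by 3.73 ± 0.14, 4.14 ± 0.14 and 1.17 ± 0.15 in 21FR, 30FR and 30WL (edgeR adjusted p = 2.89e-06 in 30WL). PAR1 was above it by 0.66 ± 0.16 in 21FR and 1.13 ± 0.15 in 30FR (edgeR adjusted p = 0.0175 and 2.8e-06), and PAR2 by 0.28 ± 0.11 in 30FR (0.0365).

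Between the 2 shade conditions 12.3% of tests at single time points over all genes passed higher in 30FR and 12.5% lower. The share over all genes for the mean over time of this comparison alone is not given here. In that mean 30FR was higher for HFR1, by 0.41 ± 0.11, and for PAR1, by 0.46 ± 0.14. It was lower for PIL1, by -0.42 ± 0.09, and at 0.13 ± 0.11 for PAR2 (edgeR adjusted p = 0.00365, 0.00954, 0.000446 and 0.32 in this order). These values are for HFR1, PAR1 and PIL1 past the threshold whichever of the 16 libraries was left out. The mean rise of PAR1 in 21FR missed it without any of 5 libraries, replicate 1 of 21FR at 1, 3 or 6 h and replicate 2 of 21WL at 1 or 24 h (edgeR adjusted p = 0.052 to 0.0712), and that of PAR2 in 30FR without any of 9 of 16 libraries (0.0567 to 0.148) and by DESeq2 (0.0571).

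Per length of exon, HFR1 was the most abundant of the 4 in shade, and its ratio to PIL1 was higher in 30FR than in 21FR. Within a library of 21FR, the log2 ratio of HFR1 to PIL1 in CPM per kb of exon was 0.53 and 0.23 at 1 h, 0.65 and 0.70 at 3 h, 1.42 and 1.59 at 6 h, and 1.20 and 1.05 at 24 h. In 30FR it was 1.04 and 1.19 at 1 h, 1.66 and 1.96 at 3 h, 2.16 and 2.27 at 6 h, and 1.76 and 1.90 at 24 h. Both 30FR libraries lay above both 21FR libraries at each of the 4 time points, and HFR1 per kb was 1.3 to 2.85 times PIL1 in 21FR and 2.17 to 4.65 times in 30FR. This ratio was chosen after its values were seen and is given as a description without a test. In 30WL HFR1 was 11.2 to 18.7 times PIL1 and in 21WL 3.43 to 8.21 times, both from low counts of PIL1, and the libraries of 21WL overlapped those of 30FR at 6 h and 24 h and of 30WL at 3 h.

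PAR2 was the more abundant of the PAR genes per kb of exon in 15 of the 16 groups, at 1.38 to 3.23 times PAR1. In 30FR at 1 h alone it was at 0.682 times PAR1, with log2 ratios of -0.80 and -0.30 in the 2 libraries, and by 24 h in 30FR it was back at 2.84 times.

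**Figure D5:**
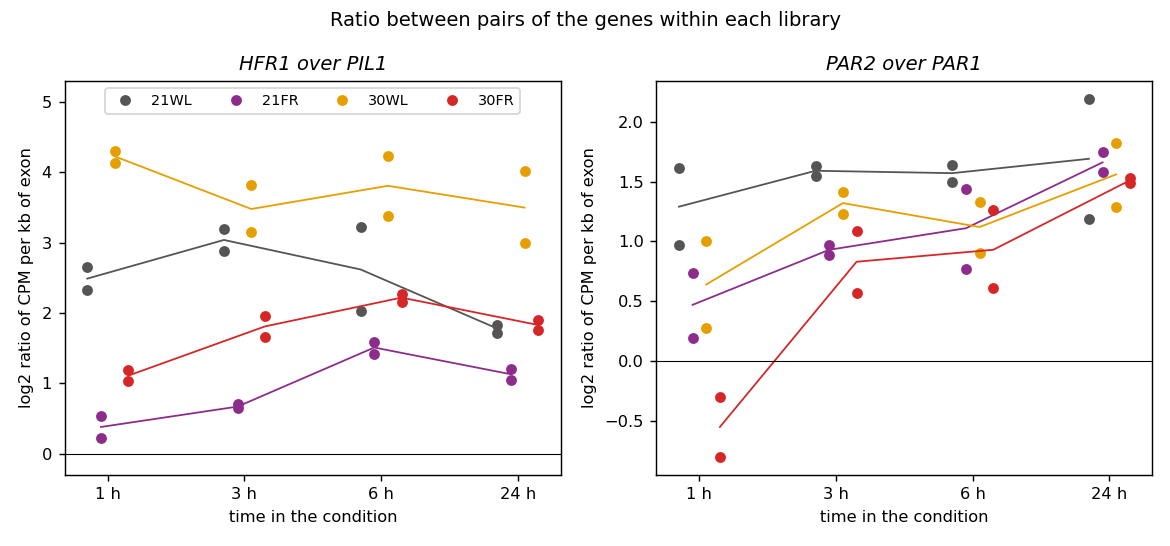
Log2 ratio of HFR1 to PIL1 (left) and of PAR2 to PAR1 (right) in CPM per kb of exon within each library, with 1 point a library and lines through the means of 2 replicates. On the left 30FR (1.04 to 2.27) is above 21FR (0.23 to 1.59) at each time point, and on the right 30FR at 1 h is the group below 0.

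Ranked by mean level, the 16 groups of PIL1 fell into 8 with far-red light, from 40.4 CPM in 21FR at 3 h to 19.6 CPM in 21FR at 1 h, and 8 without, at 0.603 to 1.05 CPM. Of its 15 neighbours in this order 11 overlapped in their replicates, among them all those without far-red light. The order of HFR1 ran from 98.7 CPM in 21FR at 6 h down to 22.7 CPM in 21FR at 1 h, then the 4 groups of 30WL at 10.08 to 7.99 CPM and last the 4 of 21WL at 4.46 to 3.21 CPM, with 9 of 15 neighbours overlapping. For PAR1 the highest group, 30FR at 1 h with 11.1 CPM, was apart from the next, and the other 14 pairs of neighbours overlapped. For PAR2 the same held of 30FR at 3 h with 11.6 CPM.

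Over the 16 group means on a log2 scale with a pseudocount of 0.5 CPM, PIL1 and HFR1 had a Pearson r of 0.94 with each other, and the other pairs of the 4 genes 0.40 to 0.56, as a description over groups that share conditions. The 5 genes most like PIL1, among 5995 tested genes whose group means spanned at least 1 log2 unit, were IAA29 (r = 0.970), NIT1 (0.963), SAUR23 (0.962), SAUR22 (0.958) and ATHB2 (0.948). IAA29 is an auxin-induced repressor, NIT1 a nitrilase, ATHB2 a homeodomain factor induced by shade, and SAURs are small auxin-induced genes of growth. For HFR1 they were SAUR22 (0.962), IAA29 (0.949), SAUR23 (0.944), SAUR19 (0.941) and FLP1 (0.936). SAUR19, SAUR22 and SAUR23 are close copies with mean levels of 0.0735 to 0.33 CPM in 21WL, and their single values are uncertain.

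PAR1 and PAR2 had other neighbours. Those of PAR1 were IAA2 (r = 0.957), AT3G50800 (0.948), AT5G66580 (0.943), AT1G09250 (0.943), which encodes the atypical HLH protein AIF4, and PIN3 (0.933), an auxin carrier. Those of PAR2 were IAA14 (0.825), PRE2 (0.783), also an atypical HLH gene and listed as BNQ2, AT5G02540 (0.757), IAA7 (0.754) and ENODL8 (0.752). The mean of IAA2 over the 4 time points was 42.9 CPM in 21WL, 80 in 21FR, 51.2 in 30WL and 102 in 30FR. By Spearman's rho 5 of these 20 places were held by the same genes.

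Upstream of the 4 genes stand the PIF genes, all 7 of which were tested. Against 21WL none was called higher and PIF7 at 1 h was called lower in 28 tests of 21FR (background 0.0645% lower), with 16.2 ± 3.21 CPM (SD, n = 2) in 21WL and 6.95 ± 0.512 in 21FR and a log2FC of -1.23 ± 0.20 (edgeR adjusted p = 0.00276). In 30WL 4 of 28 tests were called higher (background 1.52%), PIF4 at 1, 3 and 24 h and PIF5 at 24 h. PIF4, the main PIF of warmth responses, was at 16.4 ± 5.44 CPM in 21WL, 10.2 ± 3.25 in 21FR, 63.1 ± 2.12 in 30WL and 75.7 ± 1.11 in 30FR at 1 h. In 30FR against 21FR 4 of 28 tests were called higher (background 1.45 to 2.85% by time point). At 1 h PIF4 rose by a log2FC of 2.90 ± 0.27, PIF5 by 1.39 ± 0.17 and PIF6 by 1.41 ± 0.42 (edgeR adjusted p = 1.26e-07, 4.32e-06 and 0.0152), and PIF4 also at 3 h. In 21FR no PIF transcript was called higher (background 0.217%). Whether PIF transcript levels bear on PIL1 and HFR1 was not tested.

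Other shade genes downstream of the PIFs were often called with far-red light. Of 60 tests of 15 such genes 19 were called higher in 21FR (31.7%), none in 30WL and 28 in 30FR (46.7%). The shares over all genes were 0.217%, 1.52% and 2.34%, so that having no call in 30WL is near the share of all genes. The median log2FC of the 15 genes lay, by time point, between 0.50 and 1.13, between 0.05 and 0.31, and between 0.39 and 1.42. The medians of all genes tested lay between -0.020 and 0.025. The list was chosen as shade response genes with earlier results of these data known, so its calls with far-red light are a description and no test. At 1 h in 21FR ATHB2 rose by 3.14 ± 0.19, IAA29 by 4.73 ± 0.41, HAT2, a relative of ATHB2, by 1.69 ± 0.14 and YUC9, an auxin synthesis enzyme, by 2.20 ± 0.26 (edgeR adjusted p = 1.13e-09, 6.83e-07, 6.28e-07 and 4.9e-05). In 30FR against 21FR 3 of 60 were called higher (5%) and 2 lower (3.33%), near the shares of all genes given above. The calls higher were XTH15, a cell wall enzyme, at 1 h and 3 h, by 1.32 ± 0.36 and 1.82 ± 0.34, and IAA19, an auxin-induced repressor, at 3 h, by 1.13 ± 0.26 (edgeR adjusted p = 0.00966, 0.00054 and 0.00255). Those lower were both of YUC5, an auxin synthesis enzyme, with a log2FC of -1.10 ± 0.35 at 1 h and -1.22 ± 0.33 at 6 h (edgeR adjusted p = 0.0206 and 0.0113).

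Among the other atypical HLH genes 9 of 11 were tested, PRE4 and PRE5 being too low. In 21FR 3 of 36 tests were called, all higher (background 0.217%) and all of PRE1, whose protein promotes growth. Its log2FC was 1.99 ± 0.33 at 1 h (edgeR adjusted p = 0.00263). In 30FR against 21WL 8 of 36 tests were called, all higher (background 2.34%). Among them were PRE1 at all 4 time points, AIF3 at 1 h and 3 h, by 1.15 ± 0.13 and 1.21 ± 0.13 (edgeR adjusted p = 1.56e-06 and 2.1e-06), and AIF4 at 1 h, by 1.04 ± 0.12 (2.87e-06). AIF3 and AIF4 belong to a group of HLH proteins that restrain growth. In 30WL against 21WL none of the 36 was called (background 1.52% higher), and none in 30FR against 21FR (background 1.45 to 2.85% higher by time point). Having no call in either comparison is near these shares.

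The 12 genes that act on the stability or induction of the 4, among them COP1, SPA1 to SPA4, DET1, HY5 and the photoreceptors, gave few calls. None of 48 tests was called in 21FR or in 30WL, which is near the shares of all genes (background 0.217% and 1.52% higher). The median log2FC of the 12 genes there stayed between -0.12 and 0.03. In 30FR against 21WL 2 of 48 tests were called higher and 1 lower (background 2.34% and 2.06%), near the shares of all genes. There PHYA, the far-red photoreceptor, rose by 1.57 ± 0.14 at 1 h and 1.3 ± 0.14 at 3 h (edgeR adjusted p = 6.14e-08 and 1.83e-06). HYH, a relative of HY5, fell at 24 h by a log2FC of -1.10 ± 0.16 (edgeR adjusted p = 5.29e-05). PHYA stood at 286 ± 65.2 CPM in 30FR at 1 h, against 125 ± 11.6 in 21FR, 154 ± 4.54 in 30WL and 96.0 ± 5.32 in 21WL (SD, n = 2).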

How the data were processed

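RNA-seq of 32 whole-seedling libraries was used. The authors aligned single-end reads of 50 bases to TAIR10 with STAR 2.5.4 (intron maximum 2000, at most 2 mismatches) used HTSeq 0.6.0 in its strand-specific mode to assign them to genes, and deposited these raw counts. They also deposited a normalized signal table that they call CPM, used here only as an alternative for the genes most alike. The 5 summary lines entered neither library sizes nor tests. Multiply aligned entries were 10.5 to 50.4% of a library's total, reads without a gene 2.47 to 3.58% and ambiguous reads 0.262 to 0.529%. The share of multiply aligned entries was highest in 30WL at 6 h, with 50.4 and 38.8%, and in 21FR at 3 h, with 35.3 and 36.5%. It was 23.2 and 17.8% in 30FR at 3 h, and 13.3 and 20.1% in 21WL at 6 h. Its part in the results was not tested beyond leaving out each library in turn.

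Counts of genes above 1 CPM in at least 2 libraries (20145 of 33602) were fitted with edgeR 4.0.16 (R 4.3.3), TMM factors, 1 coefficient for each of 16 groups, and 51 contrasts by the quasi-likelihood test, p-values being adjusted after Benjamini and Hochberg over all genes. The fit was also run on counts simulated with the spread that edgeR estimated. That run checks the fitting and not the results given here. The study names edgeR but not its test. A count of 0 allows 3 counts, or 0.104 to 0.371 CPM. Counting error only is covered by that limit. All 32 columns matched a sample. Alternatives were DESeq2 1.42.0, its size factors, a likelihood ratio test, no filter, time points fitted alone, a replicate block and each library left out.

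The 4 genes were named in every comparison, with the 5 genes most like each and genes of 5 fixed lists (PIF, shade response, atypical HLH, light signalling, heat response). Members and lists were chosen with earlier results of these data known. Sequences come from RefSeq TAIR10.1.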

Additional observations from a re-analysis of the deposited data

Results flagged for a closer look

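With all libraries in the fit, the response of PAR1 to 30FR over 21WL differed between time points. As given above, the call was lost on leaving out any of several single libraries. The difference was -1.37 without replicate 1 of 21WL at 24 h and -1.81 without replicate 1 of 30FR at 24 h. In the full fit the log2 fold change of PAR1 was 2.05 ± 0.30 at 1 h and 0.37 ± 0.32 at 24 h, a difference of -1.69 ± 0.44 (edgeR's quasi-likelihood test, adjusted p = 0.0249). Its level was 10.8 and 11.4 CPM in 30FR at 1 h and 3.06 and 2.60 CPM at 24 h. Photosynthesis genes were lowest in the same 24 h libraries of 30FR, at 17553 and 16721 CPM summed over 3 genes, and their part in the PAR1 value was not tested.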

How the results depend on the processing

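Of the tests of single genes, 2399 kept their side of the threshold under an alternative, among them 113 whose sign differed with neither value past it, 70 fell short of it, 15 came to pass it and none turned direction while past it. The calls of 21FR, 30WL and 30FR against 21WL, of 30FR against 30WL and of the interaction stayed within 1.5 times of their counts under every alternative run. For 30FR against 21FR the 1 call became 6 by the adjusted p alone and 0 to 3 with 1 library left out (0 without replicate 2 of 21FR at 1 h, 3 without replicate 1 of 21FR at 3 h). The calls of time within a condition numbered 5 to 9 with 1 library left out. The 1 call of change of the response with time became 4 by the likelihood ratio test and 4 by DESeq2, and 0 to 2 with 1 library left out, and with the replicate block it became 2, adding PAR1 at 6 h in 30FR (adjusted p = 0.0461). Means over the time points gave 14 by the adjusted p alone. By Spearman's rho 5 of the 20 places of likeness were held, and 20 with the normalized table of the authors. The cause of these differences was not tested. The same replicate numbers recur in all groups, and whether they pair the libraries could not be told. Deviations of replicate 1 had a median correlation of 0.013 over 120 pairs of groups (-0.507 to 0.597). Of these pairs 36 were over 0.1 and 32 under -0.1, and a median near 0 does not exclude a factor shared by some libraries. With the block no other count moved by over 1.5 times. Single time points were not fitted alone for comparisons between time points. With 2 libraries a group and 6 to 26 counts of PIL1 in white light, the precision of its fold changes is limited by those libraries.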
